A study of Mus musculus with 59 samples.

Results

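The prefrontal cortex of young wild-type mice that had received fluoxetine, an inhibitor of the serotonin transporter, through their mothers' milk was compared with that of wild-type mice that had received vehicle. The comparison rests on 20 of the 59 libraries of a study of Naa15: 5 female and 5 male libraries under fluoxetine and 5 female and 5 male libraries under vehicle, chosen by genotype, drug and sex alone. All mice were C57BL/6J, dosing ran over 3 weeks from postnatal day 3 to day 24, and the tissue was taken on day 25. The remaining 39 libraries came from mice heterozygous for Naa15 (HT) or given lithium, and of these only the HT males (5 fluoxetine and 4 vehicle libraries) and the wild-type lithium libraries (10) are used below. Naa15 encodes the auxiliary subunit of the NatA acetyltransferase complex, and the labels give no further detail of the HT allele. They also give no dose, and exposure through milk means that the amount each pup received is not known. Of 18088 genes in the table, 17194 had a value of at least 10 in at least 4 of the 20 libraries and were tested.

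Serotonin reaches the cortex from raphe neurons, and fluoxetine slows its removal from the synapse. In the brain, glucocorticoid hormone binds the receptors encoded by Nr3c1 and Nr3c2, which enter the nucleus and switch on genes such as Fkbp5 and Tsc22d3, many of them strongly expressed in glia and blood vessels. Immediate early genes such as Fos, Arc and Nr4a1 are transcribed within minutes of neuronal firing, through CREB and the serum response factor, and are used as a record of recent activity.

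Values are normalised counts, that is read counts divided by 1 size factor per library, and the 20 libraries held 24.99 to 32.87 M reads. The labels do not give litters, and pups of 1 dam share her treatment, so the p-values measure only the spread between these samples. Differences are log2 fluoxetine minus vehicle with the SE of a limma fit that holds sex as a covariate, on log2 of the value plus 1. A gene rose or fell only where its Benjamini-Hochberg adjusted p over all genes tested was under 0.05. Summed values of 11 markers of excitatory cortical neurons ran from 141576 to 214022 over the 20 libraries, and those of 11 striatal markers from 7864 to 22637. Y-linked genes separated the sexes as labelled, but vehicle male 2 had an Xist value of 977, against 0 to 180 in the other 9 males and at least 15011 in females. In vehicle female 1 the slope of level on GC content was -0.0671 (log2 per 10 points of GC) against 0.106 to 0.170 in the other vehicle females. This slope was 0.140 ± 0.038 (SD, n = 10) under fluoxetine and 0.0945 ± 0.062 (SD, n = 10) under vehicle (permutation test, 100000 resamples, two-sided, p = 0.0433). When slopes on GC content and transcript length entered the fit, 93 genes were called, 79 of them also called without. With vehicle females 1 and 2 both left out, a setting that was not planned beforehand, 240 were called, of which 151 were also called with them. Naa15, intact in these mice, ran from 1476 to 1971 with a median of 1612 under vehicle and from 1493 to 1710.0 with a median of 1554 under fluoxetine, and its difference was -0.046 ± 0.039 (adjusted p = 0.688).

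Fluoxetine was accompanied by higher levels of genes induced by glucocorticoids and lower levels of immediate early genes and of a few sterol genes. The gene lists were chosen with earlier results of these data known. Their counts beside the shares of all genes therefore describe the members and are not an independent test. Of the 17194 genes, 183 were called (1.06%): 101 rose (0.587%) and 82 fell (0.477%). The median size of a called difference was 0.27, and all 183 had the same sign in females and in males, which share the fit that chose them. The median over all genes tested was 0.0017, with 8781 genes above 0 and 8413 below. At an unadjusted p under 0.05 there were 2049 genes (11.9%). Centring each library on its median called 118 genes up and 61 down. The number of calls was 103, 105, 112 and 116 without vehicle male 4, vehicle male 5, fluoxetine female 3 or fluoxetine male 4, and 316 without vehicle female 2, of which 180 were among the 183.

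**Figure D1:**
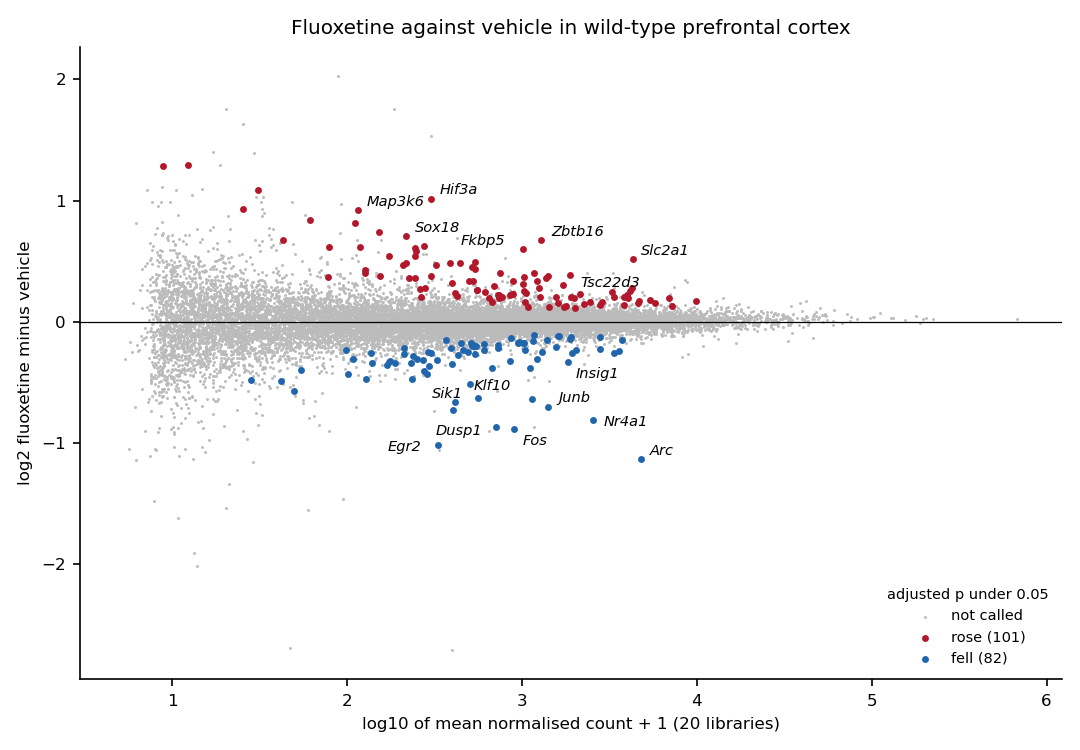
Each point is 1 of 17194 genes, placed by the log10 of its mean normalised count plus 1 over the 20 libraries (horizontal) and its log2 difference between fluoxetine and vehicle (vertical). The 101 genes that rose are red and the 82 that fell are blue; Hif3a, at 1.02, and Arc, at -1.13, lie near the outer edge of the called genes at their levels.

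Glucocorticoid-induced genes made up the largest set of increases among the lists examined. Of 38 tested, 11 rose and 2 fell, against 0.587% and 0.477% of all genes, and 31 lay above 0 with a median of 0.26. Hif3a (ENSMUSG00000004328, chromosome 7, 17031507 to 17062427, minus strand, GRCm38), an inhibitory member of the hypoxia-inducible factor family, ran from 163 to 232 with a median of 197 in the vehicle libraries and from 256 to 515 with a median of 437 in the fluoxetine libraries. No fluoxetine library overlapped the vehicle range, and Hif3a rose by 1.02 ± 0.10 (adjusted p = 3.62e-05). Zbtb16 (ENSMUSG00000066687, chromosome 9, 48654297 to 48836222, minus strand), a zinc finger repressor induced by glucocorticoids in many cells, ran from 677 to 1351 with a median of 966 under vehicle and from 1261 to 2060.5 with a median of 1571 under fluoxetine, and rose by 0.68 ± 0.081 (adjusted p = 9.59e-05). The ranges over both sexes overlapped, with vehicle males (936 to 1351) reaching higher than vehicle females (677 to 997), while within each sex every fluoxetine library exceeded every vehicle library.

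Fkbp5 (ENSMUSG00000024222, chromosome 17, 28399094 to 28517527, minus strand), a co-chaperone that lowers the hormone affinity of the glucocorticoid receptor, ran from 745 to 872 with a median of 771 under vehicle and from 861 to 1739 with a median of 1124 under fluoxetine. Only vehicle female 3 (872) reached into the fluoxetine range, through fluoxetine female 1 (861), and Fkbp5 rose by 0.60 ± 0.093 (adjusted p = 0.00119). Tsc22d3, whose product GILZ is an anti-inflammatory leucine zipper protein, ran from 1405 to 1865 with a median of 1654 under vehicle and from 1681 to 2651 with a median of 2090.4 under fluoxetine. Its groups overlapped and 9 of 10 fluoxetine libraries lay above the vehicle mean of their sex, with a rise of 0.39 ± 0.065 (adjusted p = 0.00257). Map3k6, a stress-activated kinase of the ASK family, ran from 53.2 to 101 with a median of 74.6 under vehicle and from 95.5 to 231 with a median of 139 under fluoxetine and rose by 0.92 ± 0.14 (adjusted p = 0.000892), with 1 vehicle library (101) above the lowest fluoxetine library.

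Further members rose by less or at lower precision. Slc2a1, the glucose transporter of brain capillaries, ran from 2502 to 4427 with a median of 3551 under vehicle and from 3986 to 6928 with a median of 4724 under fluoxetine, with overlap, and rose by 0.52 ± 0.084 (adjusted p = 0.00181). Mfsd2a, the transporter of docosahexaenoic acid at the blood-brain barrier, rose by 0.37, and Mertk, a receptor for the clearance of apoptotic cells that was named after its values were seen, rose by 0.36 (adjusted p 0.0193 and 0.00682). All 10 fluoxetine libraries lay above the vehicle mean of their sex for these genes. Also named after their values were seen, the sulfotransferase gene Sult1a1, the glycosyltransferase gene Galnt15 and the GTPase gene Rhob rose by 0.61, 0.43 and 0.20 (adjusted p 0.0351, 0.0315 and 0.0383), and each lost its call on leaving out any of 7 or more single libraries. When the GC and length slopes entered the fit, 7 list members rose. Mfsd2a lost its call in that fit and without the sex covariate (adjusted p 0.0897 and 0.0605).

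The list was not uniform. Sgk1, a kinase that is a direct target of the receptor in many tissues, stood at 0.087 ± 0.054, and Klf9, a transcription factor induced by the hormone, stood at 0.099 ± 0.041 (adjusted p 0.558 and 0.326). Plin4 at 0.87 ± 0.26 was the largest value without a call (adjusted p = 0.123). Dusp1 and Per1, which both glucocorticoids and neuronal activity induce, were the 2 that fell. Nr3c1, the glucocorticoid receptor gene, ran from 2669 to 3212 with a median of 2982 under vehicle and from 2164 to 2906 with a median of 2537 under fluoxetine, and fell by 0.22 ± 0.052 (adjusted p = 0.0391). Nr3c1 lost its call on leaving out any of 12 single libraries and under 6 other settings. Of the other 11 genes of receptors and hormone metabolism 0 passed, with the mineralocorticoid receptor gene Nr3c2 at -0.14 ± 0.062 and Hsd11b1, the enzyme that regenerates the active hormone, at -0.039 ± 0.086 (adjusted p 0.386 and 0.903).

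Immediate early transcription factors moved the other way. Of 31 tested 0 rose and 8 fell (0.587% and 0.477% of all genes), 21 lay below 0 and the median was -0.23. Fos, the partner of Jun proteins in AP-1, ran from 793 to 1977 with a median of 1036 under vehicle and from 328 to 848 with a median of 699.9 under fluoxetine, and fell by 0.88 ± 0.14 (adjusted p = 0.00165). All 5 fluoxetine males lay below all 5 vehicle males, while fluoxetine female 5 (848) lay above vehicle female 2 (824). Junb, an AP-1 subunit, ran from 1394 to 2330.3 with a median of 1712 under vehicle and from 831 to 1522 with a median of 1041 under fluoxetine and fell by 0.70 ± 0.080 (adjusted p = 8.45e-05). Within each sex its fluoxetine and vehicle libraries did not overlap. Nr4a1, an orphan nuclear receptor, ran from 2496 to 4604 with a median of 3261 under vehicle and from 1581 to 3108 with a median of 1688 under fluoxetine and fell by 0.81 ± 0.10 (adjusted p = 0.000131). Of its fluoxetine libraries only female 5 lay within the vehicle range. Klf10, a Krüppel-like repressor, ran from 972 to 1616 with a median of 1399 under vehicle and from 694 to 1099 with a median of 888 under fluoxetine and fell by 0.63 ± 0.090 (adjusted p = 0.000618).

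Egr2, Btg2, Ier2 and Csrnp1 were named after their values were seen. Egr2, a zinc finger factor of the Egr family, ran from 357 to 527 with a median of 434 under vehicle and from 117 to 355 with a median of 208 under fluoxetine, with no overlap, and fell by 1.02 ± 0.18 (adjusted p = 0.00368). Btg2, an antiproliferative cofactor, fell by 0.73 ± 0.15 (adjusted p = 0.017), and its vehicle females (438 to 860) lay above its vehicle males (322 to 426). Ier2 and Csrnp1, 2 nuclear immediate early proteins, fell by 0.47 and 0.43 (adjusted p 0.0123 and 0.0338), Csrnp1 losing its call without any of 12 single libraries. Other members of the same families did not pass. Egr1 stood at -0.29 ± 0.099, Egr3 at 0.080 ± 0.063 and Egr4 at -0.034 ± 0.074 (adjusted p 0.194, 0.658 and 0.903). Nr4a2 was at -0.15 ± 0.24 and Nr4a3 at -0.48 ± 0.14, and Npas4, a factor restricted to neurons, at -0.49 ± 0.18 (adjusted p 0.857, 0.116 and 0.236). Maff, a small Maf factor, had the highest value of the list at 0.60 ± 0.15 but missed the threshold (adjusted p = 0.05 when rounded).

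Among effectors of activity, 6 of 39 fell and 0 rose (0.477% and 0.587% of all genes), with a median of -0.066. Arc (ENSMUSG00000022602, chromosome 15, 74669083 to 74672570, minus strand), which traffics AMPA receptors at active synapses, ran from 4862 to 8633 with a median of 6331 under vehicle and from 2196 to 6924 with a median of 2693 under fluoxetine. In 9 fluoxetine libraries it was at most 3249, below the lowest vehicle library, while fluoxetine female 5 stood at 6924. Arc fell by 1.13 ± 0.15 (adjusted p = 0.00028). Dusp1, a phosphatase that inactivates MAP kinases, ran from 649.6 to 1218 with a median of 900.4 under vehicle and from 372 to 850.0 with a median of 472 under fluoxetine and fell by 0.87 ± 0.11 (adjusted p = 0.000218). Here too fluoxetine female 5 alone lay within the vehicle range. The kinase gene Sik1, which CREB induces and which feeds back on its coactivators, ran from 504 to 940.2 with a median of 641 under vehicle and from 357 to 545 with a median of 425 under fluoxetine and fell by 0.63 ± 0.074 (adjusted p = 9.05e-05). Gadd45b, a stress and activity gene linked to DNA demethylation, fell by 0.32 ± 0.045, and Arl4d, a small GTPase, fell by 0.51 ± 0.079 (adjusted p 0.000618 and 0.00119). Per1, a clock gene, fell by 0.26 ± 0.062 (adjusted p = 0.0464) and lost that call without any of 16 single libraries. Bdnf, the neurotrophin, stood at -0.066 ± 0.086, Homer1, a synaptic scaffold, at 0.14 ± 0.095 and Nptx2, a secreted pentraxin, at 0.10 ± 0.056 (adjusted p 0.81, 0.59 and 0.488). Dusp1 was also the only one of 19 genes of MAP kinase feedback to pass.

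**Figure D2:**
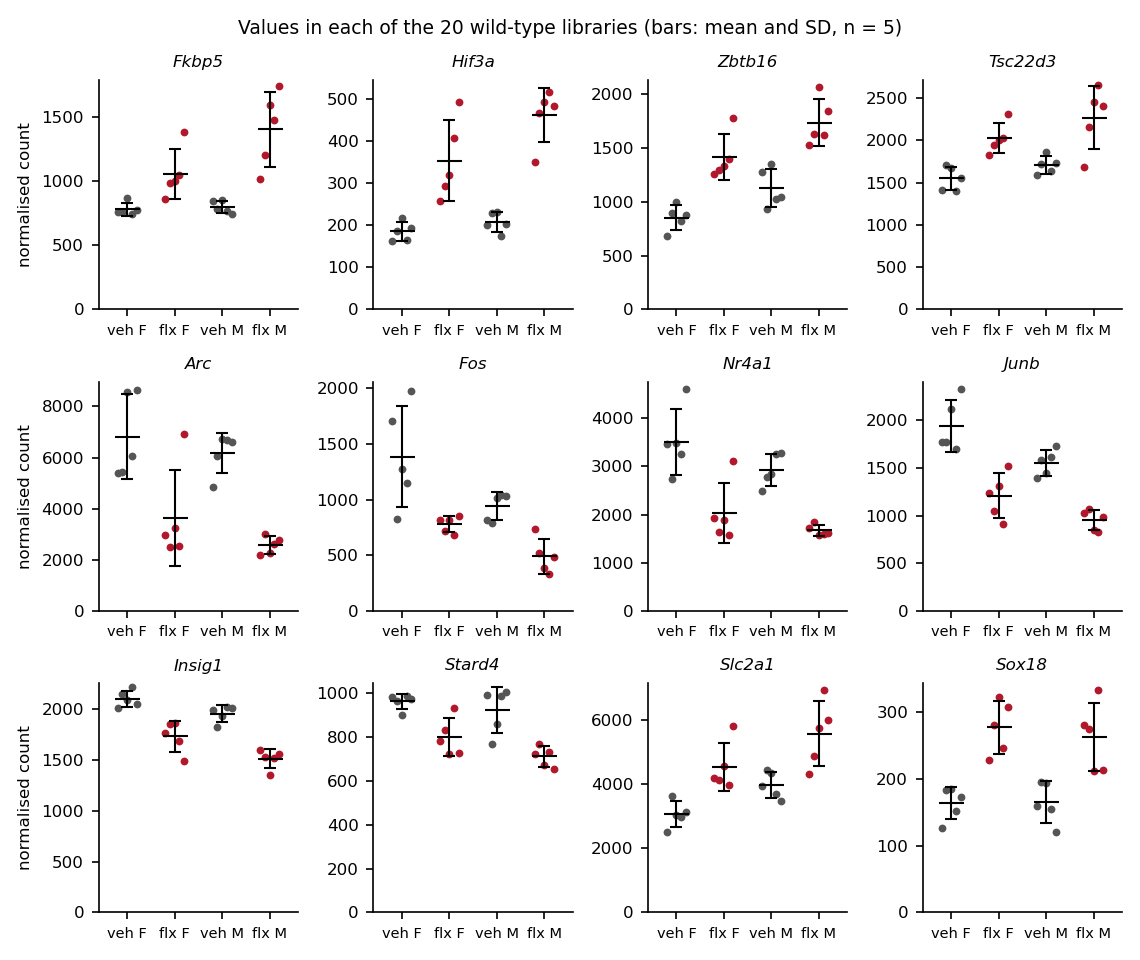
Each panel plots the normalised count of 1 gene in the 20 libraries as points, with the mean and SD of each group of 5, for vehicle (veh, grey) and fluoxetine (flx, red) in females (F) and males (M). Fluoxetine libraries lie higher for Fkbp5, Hif3a, Zbtb16, Tsc22d3, Slc2a1 and Sox18 and lower for Arc, Fos, Nr4a1, Junb, Insig1 and Stard4; 1 fluoxetine female lies at 6924 for Arc, among the vehicle libraries.

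The promoters of these genes are shown because 14 of them fell and many are known to carry sites for CREB or the serum response factor. Windows of 250 bases before to 50 after the start were taken from RefSeq (GRCm38.p6), which had them for 10 of the 14 genes. The full cAMP response element TGACGTCA, a palindrome and so read the same on both strands, was in the windows of 3 of the 10, Arl4d, Btg2 and Dusp1, and in those of 3.34% of 12328 tested genes with a window. The CArG box, bound by the serum response factor and searched on both strands, was in 1 of the 10, Egr2, and in 1.65% of the tested genes. A match is a description of these letters only. The 250 bases before the start, 5′ to 3′, carry the motif in capitals, which begins 143, 166, 26 and 133 bases before the start in the order shown. Starts are those of RefSeq transcripts, and that of Egr2 lies inside the span GENCODE gives the gene.
Dusp1 (chr17:26508473-26508722, minus strand): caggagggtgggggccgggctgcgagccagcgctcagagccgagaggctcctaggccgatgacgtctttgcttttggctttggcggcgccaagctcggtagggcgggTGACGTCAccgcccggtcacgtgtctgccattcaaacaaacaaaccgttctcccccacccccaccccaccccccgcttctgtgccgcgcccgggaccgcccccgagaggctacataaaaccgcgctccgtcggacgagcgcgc
Btg2 (chr1:134079156-134079405, minus strand): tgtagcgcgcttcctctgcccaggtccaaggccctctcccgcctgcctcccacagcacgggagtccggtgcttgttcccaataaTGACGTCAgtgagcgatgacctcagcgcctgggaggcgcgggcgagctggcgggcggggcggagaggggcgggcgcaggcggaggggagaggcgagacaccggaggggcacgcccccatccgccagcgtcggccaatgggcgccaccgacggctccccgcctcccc
Arl4d (chr11:101665291-101665540, plus strand): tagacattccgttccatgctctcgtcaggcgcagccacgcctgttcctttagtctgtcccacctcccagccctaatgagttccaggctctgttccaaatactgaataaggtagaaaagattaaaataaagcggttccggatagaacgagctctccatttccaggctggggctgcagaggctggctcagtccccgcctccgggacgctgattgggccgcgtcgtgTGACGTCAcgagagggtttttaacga
Egr2 (chr10:67537680-67537929, plus strand): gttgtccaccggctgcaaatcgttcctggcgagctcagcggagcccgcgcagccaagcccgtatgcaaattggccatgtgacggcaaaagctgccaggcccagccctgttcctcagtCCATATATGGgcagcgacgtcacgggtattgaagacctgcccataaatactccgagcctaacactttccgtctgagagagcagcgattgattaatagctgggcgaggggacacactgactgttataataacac

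The palindromic glucocorticoid response element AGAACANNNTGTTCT was in none of the windows of the 10 risen glucocorticoid-induced genes that had one, and in 3 of all 32851 windows. It says nothing of sites outside these windows.

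A few sterol genes fell under fluoxetine. Of 31 genes of sterol synthesis and uptake 5 fell and 0 rose (0.477% and 0.587% of all genes), 28 lay below 0 and the median was -0.098. Insig1 (ENSMUSG00000045294, chromosome 5, 28071363 to 28078662, plus strand), the sterol-sensing protein that holds the SREBP transcription factors in the endoplasmic reticulum, ran from 1821 to 2211 with a median of 2014 under vehicle and from 1354 to 1860.5 with a median of 1575 under fluoxetine. Only fluoxetine females reached above the lowest vehicle library, and Insig1 fell by 0.33 ± 0.040 (adjusted p = 0.000109). Stard4, a cytosolic carrier of cholesterol, ran from 767 to 1006 with a median of 979 under vehicle and from 656 to 934 with a median of 732 under fluoxetine and fell by 0.32 ± 0.053, and the synthesis enzyme gene Cyp51 by 0.23 ± 0.054 (adjusted p 0.00257 and 0.0397). Sqle, which encodes squalene epoxidase and was named after its values were seen, fell by 0.25 ± 0.061 (adjusted p = 0.0443). Sqle and Cyp51 lost their calls without any of 12 and 11 single libraries. Hmgcs1, a synthase of the mevalonate pathway, stood at -0.20 ± 0.054, and Srebf2, which encodes the SREBP of this pathway, at -0.070 ± 0.031 (adjusted p 0.08 and 0.373). The count of 5 was 3 with median centring, without the intensity trend or with GC and length trends taken out of each library, and 2 without the sex covariate. It was also 3 without fluoxetine female 1 or 5, fluoxetine male 1, 3 or 5, vehicle female 4, or vehicle male 1, 3, 4 or 5. Of 17 genes of sterol efflux 0 passed, as did 0 of 26 genes of fatty acid synthesis.

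Of 15 endothelial markers 3 rose and 0 fell (0.587% and 0.477% of all genes), 8 lay above 0 and 7 below, and the median was 0.024. The 3 were Slc2a1, Mfsd2a and Ly6c1, a surface antigen, which rose by 0.21 (adjusted p = 0.0362). Slc2a1 and Mfsd2a are also in the glucocorticoid-induced list, and Ly6c1 lost its call without any of 14 single libraries. The junction genes Cldn5, Cdh5 and Pecam1 stood at -0.11 ± 0.070, -0.0085 ± 0.067 and 0.024 ± 0.082, and the receptor genes Kdr and Tek at -0.26 ± 0.087 and -0.13 ± 0.061 (adjusted p 0.169 to 0.977). The summed marker level ran from 13411 to 19044 under vehicle and from 15181 to 22095 under fluoxetine. The 5 genes that follow are outside the list, all rose and were picked after their values were seen. They add nothing to its count and do not give the direction of endothelial genes as a set. Sox18, a transcription factor known from endothelium, ran from 121 to 195 with a median of 166 under vehicle and from 212 to 332 with a median of 277 under fluoxetine, with no overlap, and rose by 0.71 ± 0.10 (adjusted p = 0.000618). Sox17, a related factor, rose by 0.47 ± 0.086, the Notch receptor gene Notch4 by 0.49 ± 0.068, Id1, an inhibitor of helix-loop-helix factors downstream of BMP, by 0.47 ± 0.073, and Il1r1, the interleukin-1 receptor, by 0.55 ± 0.087 (adjusted p 0.00051 to 0.00682). In bulk tissue a change in the number of cells of a type and a change in RNA per cell cannot be told apart.

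Lfng, a glycosyltransferase that modifies Notch, ran from 398 to 502 with a median of 442 under vehicle and from 493 to 734 with a median of 633 under fluoxetine and rose by 0.49 ± 0.061 (adjusted p = 0.000131). Lrfn2, a synaptic adhesion protein, ran from 555 to 695 with a median of 658 under vehicle and from 791 to 933 with a median of 846 under fluoxetine, with no overlap, and rose by 0.41 ± 0.043 (adjusted p = 4.39e-05). Kcnj2, an inward rectifier potassium channel, rose by 0.46, and Trir, a ribonuclease associated with telomerase RNA, by 0.40 (adjusted p 0.00359 and 0.00571). Gjb6, the astrocyte connexin 30, rose by 0.38 ± 0.088 and was the only one of 11 astrocyte markers to pass (adjusted p = 0.0351). The zinc finger gene Zfp771 rose by 0.44, and the histone H3 lysine demethylase gene Kdm6b, itself inducible by activity, fell by 0.38 (adjusted p 0.033 and 0.0361). Gjb6, Zfp771 and Kdm6b lost their calls on leaving out any of 12, 10 and 11 single libraries. With GC and length slopes in the fit, Trir, Gjb6, Zfp771 and Kdm6b lost theirs (adjusted p 0.0514 to 0.16).

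Of 81 nuclear genes of oxidative phosphorylation 2 rose, where 0.587% of all genes did: Cox5a, a cytochrome oxidase subunit, by 0.15 ± 0.029 and Ndufab1, an acyl carrier of complex I, by 0.12 ± 0.030 (adjusted p 0.0117 and 0.0481). Of 80 cytosolic ribosomal protein genes Rpl13 alone rose, by 0.28 ± 0.064 (adjusted p = 0.0338), a share near that of all genes (0.587%), and ribosomal genes can share reads with processed copies. The medians of these lists were 0.028 and 0.036, with 58 of 81 and 60 of 80 members above 0. Ndufab1 and Rpl13 lost their calls without any of 17 and 12 single libraries. Cox5a lost its call in the fit of all 12 groups, with GC and length slopes as covariates and without the sex covariate (adjusted p 0.125, 0.056 and 0.296). Of 13 protein-coding mitochondrial genes 0 passed. Of 19 hypoxia genes 2 rose (0.587% of all genes), Hif3a and Slc2a1, both also glucocorticoid-induced list members, and of 21 core clock genes Per1 alone fell (0.477% of all genes).

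The serotonin system itself showed no called gene. Of 21 tested genes of serotonin receptors and handling 0 passed, at an unadjusted p under 0.05 also 0, and the median was 0.038. The cortical receptor genes Htr2a, Htr1a and Htr2c stood at 0.14 ± 0.070, 0.048 ± 0.051 and -0.21 ± 0.16 (adjusted p 0.463, 0.754 and 0.641). Htr2a, a receptor of pyramidal neurons, ran from 1301 to 2162 with a median of 1715 under vehicle and from 1589.7 to 2549.9 with a median of 1775 under fluoxetine, and the ranges overlapped. Htr1b was at 0.049, Htr1d at -0.27, Htr1f at -0.22, Htr3a at 0.076, Htr4 at 0.11, Htr5a at -0.025, Htr5b at -0.21, Htr6 at 0.038 and Htr7 at -0.13 (adjusted p 0.599 to 0.92). The transporter gene Slc6a4 was not analysed here.

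Of 36 genes of the unfolded protein response 0 passed by limma, and the median was 0.056. At an unadjusted p under 0.05, 14 of the 36 lay above 0 and 0 below, against 1105 and 944 of all 17194 genes. In females alone these counts were 14 and 0, with a median of 0.088. In males alone they were 0 and 1, with a median of 0.022. Xbp1, a transcription factor of this response, was nearest at 0.20 ± 0.051, and Hspa5, the chaperone BiP, stood at 0.23 ± 0.072 (adjusted p 0.0654 and 0.153). No gene passed among cytosolic heat shock genes (25 tested), dopamine and noradrenaline receptors (16), neurotrophins and their receptors (14), Wnt targets (23), lysosomal genes (42), GABA-A subunits (14), ionotropic glutamate receptors (24), postsynaptic scaffolds (30), matrix genes of perineuronal nets (18) or thyroid hormone targets (20). At an unadjusted p under 0.05 they held 4, 3, 0, 2, 3, 0, 3, 6, 0 and 4 genes, against 11.9% of all genes.

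**Figure D3:**
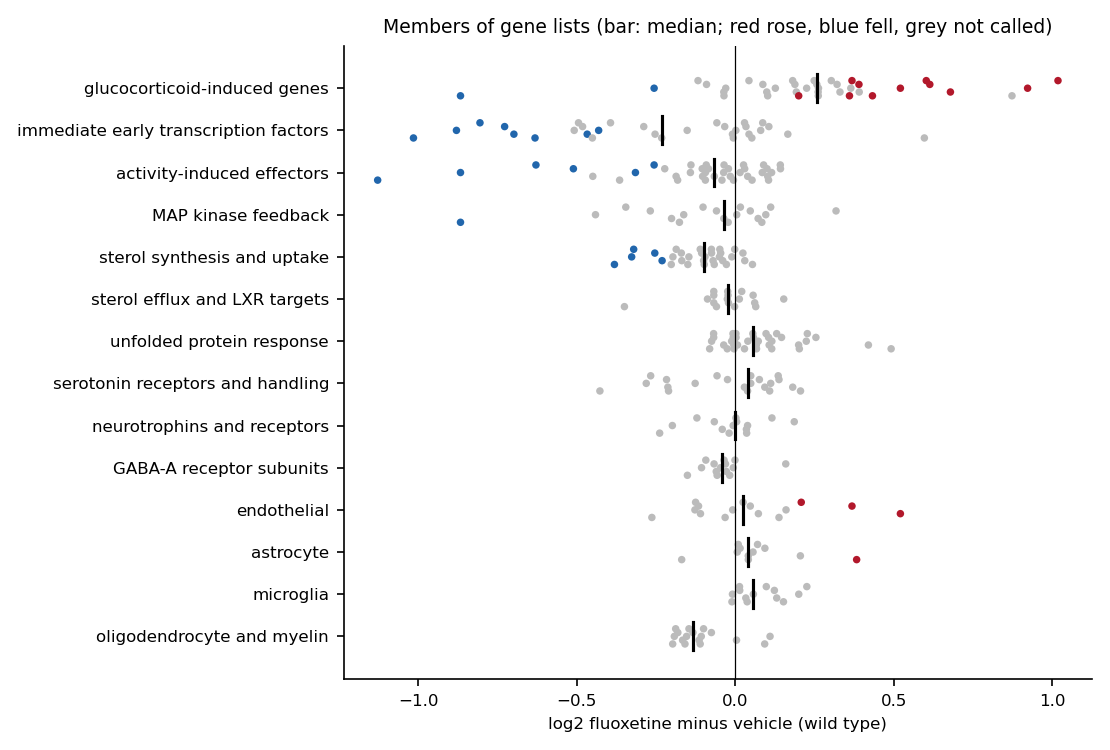
Each point is a member of 1 of 14 gene lists, placed by its log2 difference between fluoxetine and vehicle, red where it rose, blue where it fell and grey where it did not pass, with a bar at the list's median. The bar stands at 0.26 for glucocorticoid-induced genes and at -0.23 for immediate early transcription factors, against 0.0017 over all genes tested.

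Markers of excitatory neurons, interneurons, oligodendrocyte precursors, microglia, pericytes, meninges and striatum had medians between -0.011 and 0.057, and 0 of their members passed. The 17 markers of oligodendrocytes and myelin had a median of -0.13, and their summed level ran from 46954 to 250510 under vehicle and from 48416 to 184793 under fluoxetine. The 17 markers of olfactory bulb and immature cells had a median of -0.20, 7 blood cell markers 0.31 and 7 choroid plexus markers 0.29, with 0 called in each. The choroid plexus sum, taken over all 8 listed markers, ran from 152 to 427 under vehicle and from 163 to 3085.0 under fluoxetine. For the olfactory and immature cell sum the ranges were 17280.0 to 38040 and 17236 to 31449. The blood cell sum ran from 6264 to 11870 under vehicle and from 6399 to 16825 under fluoxetine. The part of these differences in the called genes was not tested.

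The groups of genes did not move in step in every library. In fluoxetine female 5 Arc stood at 6924, Nr4a1 at 3108 and Dusp1 at 850.0. All were the highest of the fluoxetine libraries, and Arc and Nr4a1 lay within the range of the vehicle females. The same library had the highest values of the fluoxetine females for Fkbp5 (1381), Hif3a (491) and Zbtb16 (1779.8). Without it 135 genes were called, of which 125 were also called with it. Among the 5 fluoxetine males, male 1 had the lowest values of Hif3a (349.7) and Fkbp5 (1013) and also of Arc (2196) and Dusp1 (372). The correlation of the 2 groups of genes across libraries was not tested.

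**Figure D4:**
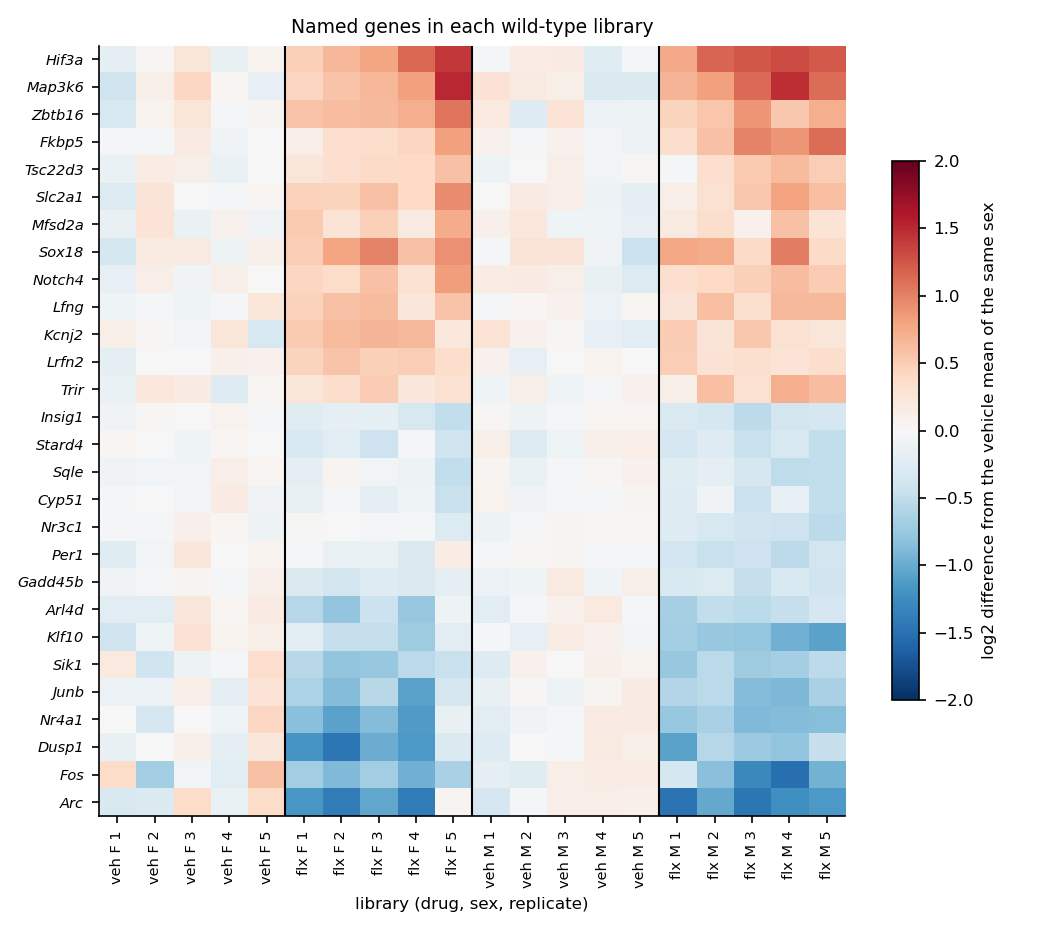
Rows are 28 genes and columns the 20 libraries, coloured by the log2 difference (value plus 1) from the mean of the 5 vehicle libraries of the same sex, with black lines between groups. In fluoxetine female 5 (flx F 5) the row of Arc is near the vehicle mean, at a value of 6924, while the rows of Fkbp5 and Hif3a are the reddest of the fluoxetine females.

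In each sex alone fewer genes passed. In females 24 rose and 11 fell (0.14% and 0.064%), in males 17 rose and 30 fell (0.0989% and 0.174%), and 11 genes were called in both. At an unadjusted p under 0.05 there were 2077 genes in females (12.1%) and 1574 in males (9.15%). Leaving out 1 library moved the female count to between 7 (fluoxetine female 2) and 144 (vehicle female 2) and the male count to between 18 (vehicle male 4) and 85 (fluoxetine male 1). The number of glucocorticoid-induced genes that rose was 2 in females and 4 in males, and immediate early factors that fell numbered 4 and 6. Genes of sterol synthesis and uptake that fell numbered 1 in females and 3 in males, with list medians of -0.043 and -0.15. At an unadjusted p under 0.05, 5 and 18 of the 31 lay below 0. Hif3a rose in females by 0.90 and in males by 1.14 (adjusted p 0.0108 and 0.00203), and Zbtb16 by 0.73 and 0.63 (0.0108 and 0.0167). Fkbp5 ran from 745 to 872 in vehicle females and 861 to 1381 in fluoxetine females, a difference of 0.42 ± 0.12 (adjusted p = 0.183). In males it ran from 745 to 849.8 and 1013 to 1739 and rose by 0.79 ± 0.12 (adjusted p = 0.00442). Nr3c1 was at -0.062 ± 0.056 in females and fell by 0.38 ± 0.056 in males (adjusted p 0.678 and 0.00386). Btg2 fell by 1.15 ± 0.17 in females and was at -0.31 ± 0.17 in males (adjusted p 0.00675 and 0.637).

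The difference between the sexes was tested directly, male minus female, and 0 of 17194 genes passed (limma, smallest adjusted p 0.441). At an unadjusted p under 0.05 there were 1393 genes (8.1%), edgeR called 0 and DESeq2 called 1. The difference was 0.37 for Fkbp5 (95% interval 0.0085 to 0.74), 0.24 for Hif3a (-0.19 to 0.68), -0.28 for Arc (-0.91 to 0.36) and -0.013 for Junb (-0.36 to 0.33). For Nr3c1 it was -0.32 (-0.49 to -0.15) and for Btg2 0.84 (0.33 to 1.36), both short of the threshold after adjustment (adjusted p 0.441 and 0.497). These intervals, which are not adjusted for the number of genes, leave room for sex differences as large as the effects of several genes.

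HT males give a comparison with libraries of its own, 5 under fluoxetine against 4 under vehicle. HT females were left out because the HT fluoxetine females were known from earlier results of these data to stand apart. GC slopes of the HT fluoxetine females ran from -0.249 to -0.0608, against 0.0601 to 0.191 in the HT vehicle females. The counts that follow therefore cover HT males only. In these males the slopes ran from -0.0031 to 0.158 under fluoxetine and from 0.076 to 0.203 under vehicle. Their part in the counts of HT males was not tested. Of 17164 genes 39 were called there (0.227%), 20 up (0.117%) and 19 down (0.111%), with 1785 at an unadjusted p under 0.05 (10.4%). All 183 genes called in wild type were tested. Of the 101 that rose, 96 (95%) were above 0 in HT males, and of the 82 that fell, 72 (87.8%) were below 0. Of the genes not called in wild type 50.1% had the same sign in both. The median was 0.18 in HT males against 0.28 in wild type of both sexes for the genes that rose, and -0.19 against -0.26 for those that fell. In wild-type males alone the medians were 0.32 and -0.30. The genes were chosen by their calls in wild type, so the wild-type medians carry that choice and the HT medians do not. The 8 genes called in both, 4.37% of 183 and 20.5% of 39, were Hif3a, Map3k6, Fkbp5, Cox5a, Enox1, Atp10a, Gm11827 and Csrnp2, the last the only one that fell. Enox1, Atp10a, Gm11827 and Csrnp2 were named after their values were seen.

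Hif3a ran from 109.5 to 208 in HT vehicle males and from 272 to 393 in HT fluoxetine males, without overlap, and rose by 1.13 ± 0.16 (adjusted p = 0.0188). Fkbp5 ran from 702 to 963 and from 1137 to 1458 and rose by 0.69 ± 0.12 (adjusted p = 0.0326). Map3k6 rose by 0.93 (adjusted p = 0.0391). These were the 3 glucocorticoid-induced genes of 39 that rose there, where 0.117% of all genes did. The list with most called increases in HT males was another, the unfolded protein response, at 4 of 36 with a median of 0.069. In wild type 0 passed over both sexes and 0 in males alone. The direct difference, HT minus wild-type males, was called for 0 of its members. Called decreases in HT males numbered 2 of 31 for sterol synthesis and uptake and 2 of 23 for Wnt targets, against 0.111% of all genes. Of 31 immediate early factors 0 passed in HT males, with a median of -0.13. Arc stood at -0.84 ± 0.26 and Junb at -0.54 ± 0.16 there (adjusted p 0.235 and 0.196). Of 15 endothelial markers 12 lay below 0 in HT males, with a median of -0.19 and 0 called. At an unadjusted p under 0.05, 9 of the 15 lay below 0, against 1019 of all 17164 genes. Of 11 markers of pericytes and smooth muscle 10 lay below 0, with a median of -0.33, and Pdgfrb, the pericyte receptor for platelet-derived growth factor, fell by 0.33 ± 0.057 (adjusted p = 0.0289). Slc2a1 was the highest endothelial marker there at 0.21, and Mfsd2a stood at 0.092 (adjusted p 0.582 and 0.806). Markers of other cells also leaned in HT males, with 0 called. All 17 of oligodendrocytes and myelin lay above 0, with a median of 0.26 against -0.12 in wild-type males. Of 17 olfactory bulb and immature cell markers 14 lay above 0, with a median of 0.28. Below 0 lay 11 of 13 microglia, 9 of 11 astrocyte and all 12 meningeal markers. The part of these marker differences in other differences in HT males was not tested. Among the 5 risen genes with the opposite sign was Xlr3a, at 1.09 in wild type and -0.34 in HT males, a member of an X-linked family of near-identical copies whose reads may be shared. The difference of the fluoxetine effect between HT and wild-type males was called for 0 of 17164 genes (limma, smallest adjusted p 0.559; 1173 genes, 6.83%, at an unadjusted p under 0.05; 0 by edgeR and by DESeq2). It was -0.0087 ± 0.22 for Hif3a, -0.099 ± 0.17 for Fkbp5 and 0.43 ± 0.36 for Arc.

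**Figure D5:**
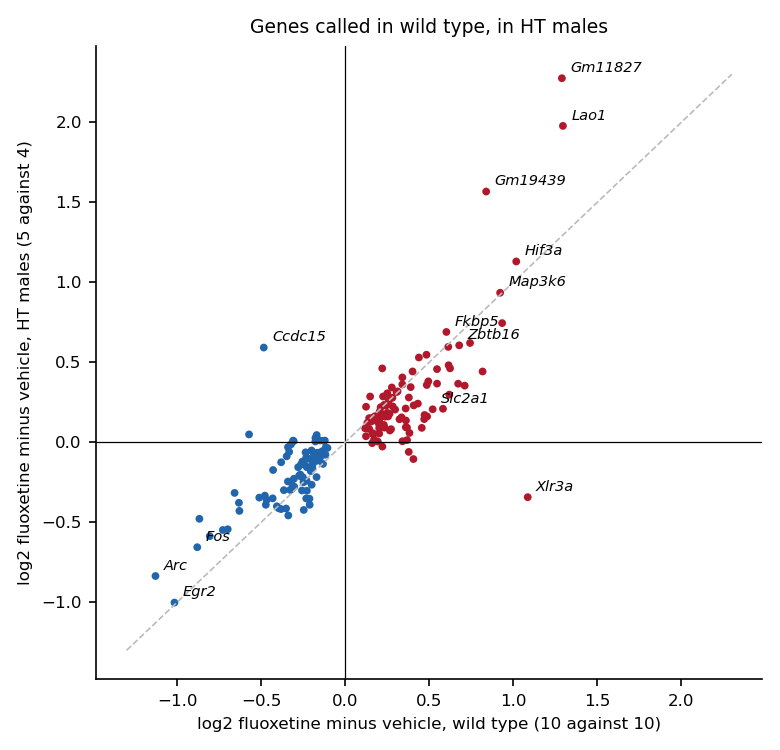
Each point is 1 of the 183 genes called in wild type, placed by its log2 difference between fluoxetine and vehicle in wild type (horizontal) and in HT males (vertical), red where it rose and blue where it fell in wild type, with equality as the dashed line. Of the red points 96 of 101 lie above 0 on the vertical axis, and of the blue points 72 of 82 lie below.

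The direct difference between fluoxetine and lithium in wild type was read for named genes only, since 9284 of 17300 genes (53.7%) differed between these drugs, 4649 higher (26.9%) and 4635 lower (26.8%) under fluoxetine. The lithium libraries stood apart: their GC slopes ran from -0.254 to -0.0618, against 0.0841 to 0.182 under fluoxetine, and mitochondrial genes took 7.37 to 10.3% of their reads, against 4.96 to 7.83%. With GC and length trends taken out of each library, the count for fluoxetine versus lithium in WT was 5296, of which 4017 were among the 9284. The differences of single genes below come from the fit without this step, and those with it are not reported here. How far the mitochondrial share enters them was not tested. Hif3a and Fkbp5 ran from 344 to 564 with a median of 415 and from 1013 to 1584 with a median of 1292 under lithium, and fluoxetine minus lithium was -0.096 ± 0.12 and -0.11 ± 0.11 (adjusted p 0.538 and 0.422). Tsc22d3 stood at 0.021 ± 0.090 (adjusted p = 0.864). Zbtb16 was higher under fluoxetine by 0.35, Slc2a1 by 0.44 and Sox18 by 0.84 (adjusted p 5.33e-05 to 0.00161). Arc ran from 1054 to 2739.9 with a median of 1587 under lithium and was higher under fluoxetine by 0.82 ± 0.17 (adjusted p = 0.000362), and Nr4a1 stood at 0.20 ± 0.10 (adjusted p = 0.118). Insig1 was lower under fluoxetine by 0.17 on the log2 scale (adjusted p = 0.00467).

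In 9 genes the 10 fluoxetine and the 10 vehicle libraries did not overlap. The 4 that were higher under fluoxetine in every library (0.0233% of the genes tested) were Hif3a, Sox18, Lrfn2 and Zdhhc14, a palmitoyltransferase that rose by 0.20 ± 0.032 (adjusted p = 0.0017). The 5 that were lower (0.0291%) were Egr2, Ccdc15, Esco1, Zbed4 and Csrnp2. Ccdc15, a centrosomal protein of low level, ran from 41.1 to 63.8 with a median of 45.1 under vehicle and from 24.3 to 40.7 with a median of 34.7 under fluoxetine and fell by 0.48 ± 0.094 (adjusted p = 0.011), but stood at 0.59 ± 0.17 in HT males (adjusted p = 0.152). Esco1, a cohesin acetyltransferase, fell by 0.20, the zinc finger gene Zbed4 by 0.18 and Csrnp2, a nuclear protein related to Csrnp1, by 0.17 (adjusted p 0.00068 to 0.033), and Zbed4 lost its call without any of 7 single libraries. These genes other than Hif3a and Lrfn2 were named after their values were seen.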

How the data were processed

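The authors deposited 1 table of normalised signal for 18088 Ensembl genes in 59 libraries of a stranded poly(A) kit. Salmon 0.11.2, R 3.6.0, DESeq2 1.19.11 and GRCm38 are named, per the submitters' processing notes, with no roles given. The deposited signal behaves as read counts over 1 size factor per library: values of 1 to 1000 reads were whole multiples of each column's step (100% within 0.01 read, all 59 columns). This keeps ratios between libraries but no absolute amount. Annotation came from GENCODE M21 (18077 identifiers matched).

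Differences came from limma 3.58.1 in R 4.3.3 with an intensity trend, fitted to log2(value + 1) on drug and sex over 20 libraries (17 residual degrees of freedom), two-sided, with Benjamini-Hochberg adjustment over 17194 genes. The constant of 1 shrinks the folds of low genes. Each sex, and the sex difference, came from a fit of the 4 group means, and the HT difference from 19 male libraries. Alternatives were other filters, constants and scalings, the replicate block, GC and length terms, count tests on recovered reads (edgeR 4.0.16, DESeq2 1.42.0) and leaving out each library. Fits were tested on simulated data, and 40 replicate pairs held 0 duplicates. Members and gene lists were chosen with earlier results of these data known. Named genes were, of called genes with a mean of 470.04 (the median) or more, the 10 that rose most and the 10 that fell most, then up to 4 called per list and the serotonin receptors. Other genes, including list members without a call, were chosen after their values were seen. Values of some list members are not reported here.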

Additional observations from a re-analysis of the deposited data

Results flagged for a closer look

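A library was marked where its gap to the nearest of the other 4 of its group was large against the group's whole range (Dixon's 95% criterion). Of 148 such checks 8 were met, and chance alone meets about 1 in 20. Vehicle female 3 was high for Fkbp5 (872 against 745 to 774) and low for Stard4 (903 against 967 to 989). Vehicle female 5 was high for Lfng (502 against 398 to 414), and vehicle female 4 high for Cyp51 (2485 against 2112 to 2197). Fluoxetine female 5 was high for Arc (6924 against 2515 to 3249) and low for Nr3c1 (2359.9 against 2783 to 2906). Fluoxetine male 1 was low for Hif3a (349.7 against 467 to 515). Vehicle female 1 was low for the GC slope (-0.0671 against 0.106 to 0.170).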

How the results depend on the processing

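The 183 calls became 118 without the intensity trend, 351 with DESeq2, 93 with GC and length slopes as covariates and 100 without the sex covariate, and 103 (vehicle male 4 left out) to 316 (vehicle female 2 left out) when each library was left out in turn. Leaving out vehicle male 5, fluoxetine female 3 or fluoxetine male 4 gave 105, 112 and 116. Median centring called 118 up and 61 down, and the fit of all 12 groups 115 up and 69 down. The 35 calls in females became 22 with quantile normalisation, 8 without the trend, 142 with DESeq2, 13 with the slopes as covariates and 7 to 144 with 1 library left out. The 47 calls in males became 23 in the fit of all 12 groups, 137 with DESeq2 and 18 to 85 with 1 library left out. The sex difference went from 0 to 1 gene with DESeq2, and fluoxetine versus lithium in WT from 9284 to 5296 with GC and length trends taken out of each library. Glucocorticoid-induced genes that rose went from 11 to 7 with the slopes as covariates. Sterol genes that fell went from 5 to 3 with median centring, without the trend and with those trends taken out, to 2 without the sex covariate, and to between 3 and 6 with 1 library left out (sterol synthesis and uptake: members that fell). The cause was not tested. Of 561 values of 33 named genes under 17 other settings, 48 in 13 genes lost their call, as did 115 of 660 in 9 genes with 1 library left out, and 0 changed sign. Libraries of the same replicate number were not paired in the main fit. The mean correlation of deviations was 0.029 over 30 pairs of the same number and -0.0072 over the other pairs. Of 20 libraries 7 correlated best with their own number. These values cannot show whether libraries shared a litter or batch. The replicate block called 151 genes, 87 up and 64 down.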
